A study of Mus musculus with 13 samples.

Results

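Molecular chaperones help other proteins to fold, assemble and reach their place in the cell. The genes described here are those of the constitutive chaperones and their partners, the J-domain proteins, in the liver of the mouse. They are the protein-coding genes whose symbols begin with Dnaj, Cct, Pfdn, Bag, Hspa or Hspb, with Hspd1 and Tcp1, chosen by name and not by a measured value. From these, 10 genes were left out by name: Hspa1a, Hspa1b, Hspa5, Hspa8, Hspb1, Bag3, Dnajb1, Dnajb9, Dnajb11 and Dnajc3. Most of these are known as stress-induced or as chaperones of the endoplasmic reticulum, but Hspa8 is a constitutive chaperone of the cytosol. The word constitutive only names the set, and whether its members are induced by stress was not examined. The rule found 66 of 11779 rows of the liver table, or 66 of its 11396 protein-coding rows. The 66 rows carry 65 symbols, since Hspa14 has 2 rows, and the annotation used here (GENCODE release M21) names the second one Gm45902.

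The study asked what the loss of the long non-coding RNA LL35, also called Falcor, does to hepatocytes. Livers of Balb/c mice were taken 5 days after an injection of antisense oligonucleotides (ASOs) conjugated to GalNAc, a sugar that directs them to hepatocytes. A group of 3 mice received a mix of ASOs against LL35, and 3 control mice received 1 ASO against firefly luciferase (Luc ASO). The labels and the paper's text give 5 ASOs in the mix, while the paper's list of ASOs for mice holds fewer. The labels give 150 mg/kg for each ASO of the mix, while the methods give doses as totals of the mix, and the dose of Luc ASO is not given in the labels. The 7 samples of the mouse hepatocyte line AML12 were not analysed here. No untreated mice were compared, and the mice's age and sex are not given in the sources used here.

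Each gene has 1 value here, the authors' mean normalized count, which is the mean over the livers of both groups. It describes how much of a transcript these livers held and gives no difference between LL35 ASO and Luc ASO. It has no spread between mice, so 2 genes that stand near each other in an order of levels cannot be told apart by it. The lowest value in the table was 15.6 and the median was 235. Among the members, 9 had a mean normalized count under 50. The depth of each library is unknown. For comparison between genes, the mean normalized count was divided by the length of the gene's merged exons in kilobases (kb), and this is called the level per kb. Because the length of the transcripts that the liver makes is not known, levels per kb were also computed with the length of 1 transcript a gene and with the length of the coding region. Counts take in whole exons, so division by the coding region raises genes whose coding region is a small part of the transcript. A difference between 2 genes is stated below only where all 3 lengths gave it the same direction, unless it is said otherwise.

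The markers of hepatocytes were high in these livers, as the label of the tissue has it. The 8 hepatocyte markers lay between 5497 and 519843 per kb, the highest being albumin (Alb). Other cells of the liver were measured too, since whole tissue was used. The 6 macrophage markers had a median of 359 per kb, the 5 endothelial markers 126 and the 5 stellate cell markers 36.8. Of 4 cholangiocyte markers, Sox9 alone had a row, at 9.94 per kb, and none of 5 muscle markers had one. A level in such a mixture is an average over cell types. In bulk tissue, fewer cells of a type and less RNA per cell cannot be told apart.

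Hsp70 proteins bind unfolded stretches of a protein and release them as they bind and hydrolyse ATP. J-domain proteins bring substrates to Hsp70 and stimulate its ATPase, while nucleotide exchange factors such as Bag1 and Hspa4 reset it. Prefoldin and the ring-shaped chaperonin TRiC (also CCT) fold actin and tubulin in the cytosol, and Hspd1 (Hsp60) forms the chaperonin of mitochondria.

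The whole set lay somewhat above the middle of the transcripts of the liver. The median level of the 66 members was 76.3 per kb, against 52.1 over all protein-coding rows, and their median percentile was 61.5. Of the members, 41 were above the median of protein-coding rows, 11 were in the top 10% and 12 were in the lowest 25%. The number in the top 10% depended on the length, with 10 members by 1 transcript a gene and 5 by the coding region. By each of the 3 lengths, 36 members stayed above the median and 20 below it, and 10 changed sides. Together, the members made up 0.353% of the summed level per kb of protein-coding rows. The spread within the set was wide, from 3.40 per kb for Hspa12a to 1586 per kb for Hspd1.

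**Figure D1:**
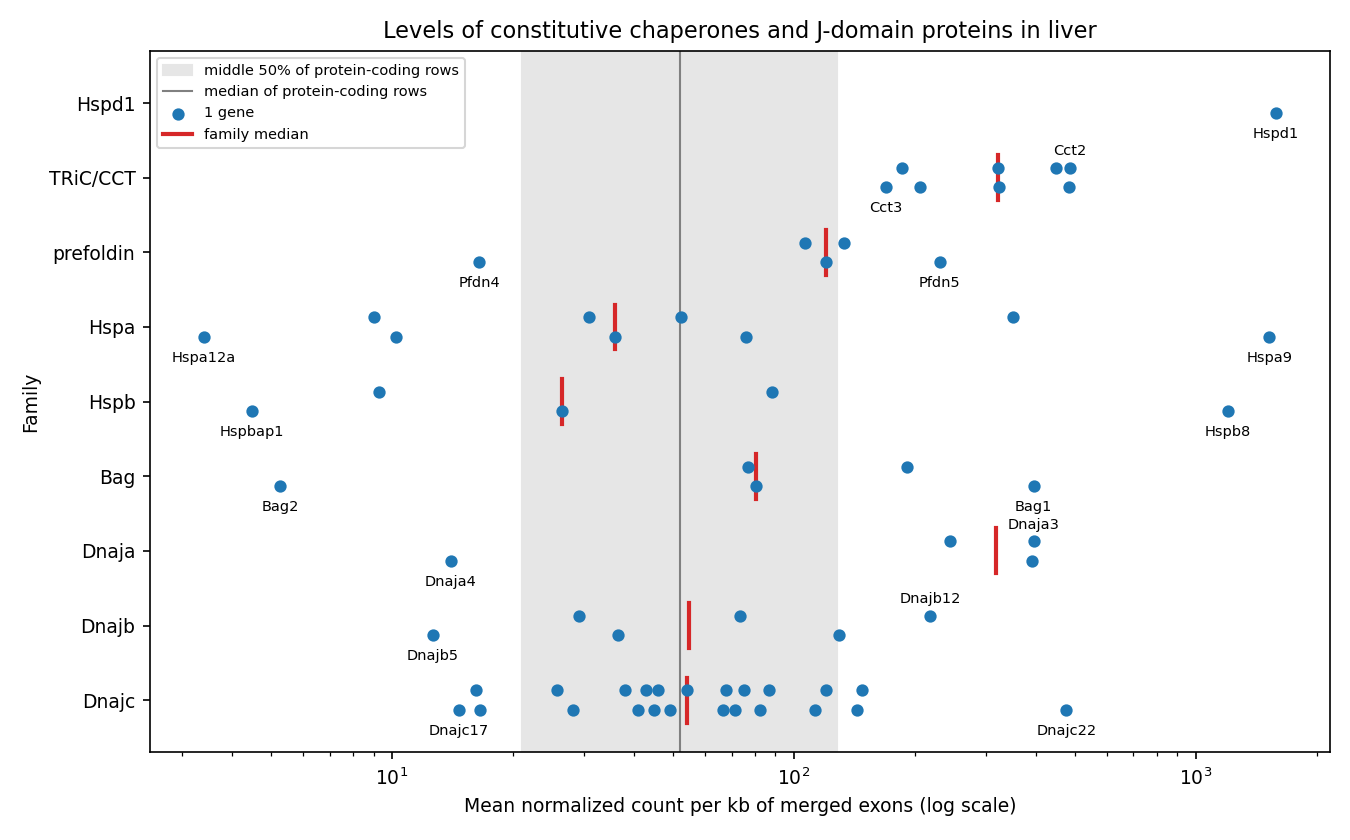
Level of each of the 66 members in liver, as the authors' mean normalized count per kb of merged exons, on a log axis, by family. Points are genes, red lines are medians of families with over 2 genes, the grey band holds the middle 50% of protein-coding rows, and the lowest and highest gene of each family is named. Hspd1, Hspa9 and Hspb8 stand apart at 1203 to 1586 per kb, and all TRiC subunits lie to the right of the band.

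A pair of mitochondrial chaperones, Hspd1 and Hspa9, and the small heat shock protein Hspb8 held the 3 highest levels by every length. Hspd1, the mitochondrial chaperonin, reached 1586 per kb, with a mean normalized count of 4189. Hspa9 (mortalin), the Hsp70 protein of the mitochondrial matrix that also pulls imported proteins across the inner membrane, reached 1524 per kb, with a mean normalized count of 6570. Their order changed with the length: Hspd1 led with merged exons, Hspa9 with 1 transcript a gene and Hspb8 with the coding region. The ratio of Hspa9 to Hspd1 was 0.961, 1.25 and 1.32 with these lengths. No other member was in the top 10% of protein-coding rows by every length.

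The partners of Hspd1 and Hspa9 were lower, but with the coding region Hspe1 was too near Hspd1 to be ordered. Hspe1 (Hsp10), the lid of the mitochondrial chaperonin, had a level of 475 per kb, and Hspd1 stood 1.08- to 3.34-fold above it, depending on the length. Dnaja3 (Tid1), the class A J-domain protein of mitochondria, had a level of 396 per kb, and Hspa9 stood 3.00- to 3.85-fold above it. Grpel1, the nucleotide exchange factor of Hspa9, had a level of 325 per kb, and Hspa9 stood 1.84- to 6.63-fold above it. Grpel2, the relative of Grpel1, had 132 per kb. Trap1, the mitochondrial Hsp90 protein, reached 553 per kb. Hscb, the J-domain protein that hands iron-sulfur clusters on with Hspa9, was at 22.5 per kb, with a low mean normalized count of 20.3.

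A pair of overlapping heat shock elements lies between a RefSeq start of Hspd1 and the start of Hspe1. The genes Hspd1 and Hspe1 are transcribed away from each other. The heat shock element is the site of the heat shock factor HSF1, and it was searched as 3 alternating triplets, GAA and TTC, each separated from the next by 2 bases of any kind (NN), on both strands. RefSeq promoter windows of GRCm38.p6 were used, with 250 bases before and 50 after each start. For the members, 53 of 65 symbols matched a window, and 2 of the 53 genes held an element, against 50 of the 9156 genes (0.546%) matched for the protein-coding rows. Counted by windows, 3 of 72 windows of the members (4.17%) held one, against 56 of 11772 windows of the protein-coding rows (0.476%). Over all 32851 windows in the RefSeq table the share was 0.603%. The 2 windows of Dnajb6 held the same element, so the windows are not independent. Of the 2 windows of Hspd1, 1 held an element. These shares were not tested. The 2 genes were Hspd1 and Dnajb6, and they are shown because no other member with a window held one, with the elements in capitals. None of the 9 matched genes among those left out by the rule held these letters, which says only that the full element is not in these windows.

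Hspd1, minus strand, chr1:55088053-55088082: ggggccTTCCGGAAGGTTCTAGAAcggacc
Dnajb6, plus strand, chr5:29735846-29735870: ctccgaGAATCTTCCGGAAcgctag

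The stretch of Hspd1 held 2 elements that overlap, over 18 bases in all. They end 126 bases before a start of Hspd1 and, read on the other strand, 71 bases before the start of Hspe1. In GENCODE M21, whose Hspd1 reaches further, the same stretch lies in an exon of Hspd1. The element of Dnajb6 ends 33 or 114 bases before its 2 annotated starts, inside exons annotated for Dnajb6 and the gene model Gm5129 in GENCODE M21. The genes' levels were far apart, at 1586 per kb for Hspd1 and 36.6 per kb for Dnajb6.

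TRiC subunits were high as a group. The ring is built of different subunits encoded by Tcp1 and the Cct genes, and all 8 in the table were above the median of protein-coding rows, with a median percentile of 89.6. Their mean normalized counts lay between 865 for Cct4 and 1619 for Tcp1. Cct2, Cct3 and Cct5 had mean normalized counts of 1243, 1079 and 1339. For Cct6a, Cct7 and Cct8 the mean normalized counts were 1174, 1259 and 1391. The highest subunit was 1.87-fold above the lowest without division by length, 1.81-fold with the coding region, 2.07-fold with 1 transcript a gene and 2.87-fold with merged exons. Cct4 was the lowest subunit on each of these scales except merged exons, where Cct3 was the lowest at 169 per kb. Cct6a has no coding region in GENCODE M21, which lists it as a processed transcript, so the value for the coding region rests on 7 subunits.

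Prefoldin subunits were less even. Prefoldin is the jaw-like complex that passes new actin and tubulin chains to TRiC. Pfdn5 had the highest level by every length, with 231 per kb of merged exons and a mean normalized count of 322. Pfdn2, Pfdn6 and Pfdn1 had 133, 120 and 107 per kb of merged exons, and the order of Pfdn2 and Pfdn6 changed with the length. Pfdn4 had the lowest level by every length, with 16.5 per kb and a mean normalized count of 41.6. Pfdn5 stood 6.74- to 14.0-fold above Pfdn4, depending on the length. Vbp1, the prefoldin subunit whose symbol the rule does not match, was at 49.8 per kb. The median TRiC subunit stood 2.07- to 3.79-fold above the median prefoldin subunit per kb.

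**Figure D2:**
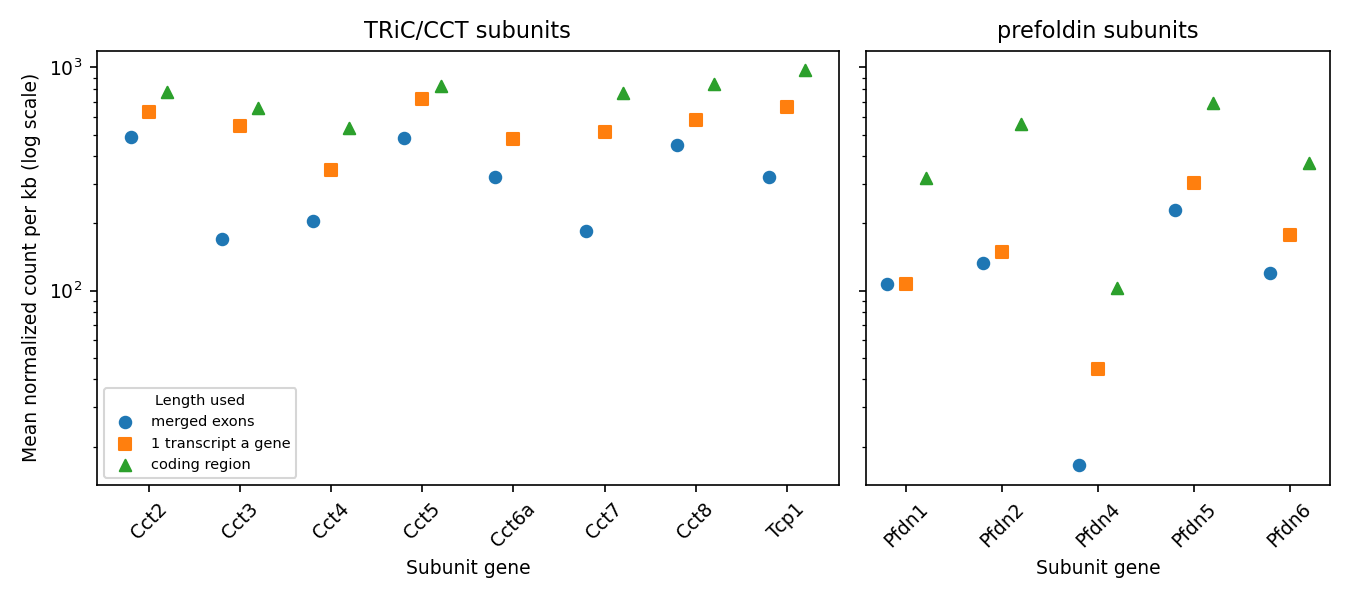
Authors' mean normalized count per kb in liver, on a log axis, for 8 TRiC subunits (left) and 5 prefoldin subunits (right), with the length taken from merged exons (circles), 1 transcript a gene (squares) or the coding region (triangles). TRiC subunits lie within 1.81- to 2.87-fold of each other, while Pfdn4 lies below the other prefoldin subunits by every length.

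Among the Hsp70 proteins in the set, Hspa9 was followed by Hspa4. Hspa4 (Apg-2), a Hsp110-type nucleotide exchange factor of cytosolic Hsp70, was at 351 per kb, with a mean normalized count of 1938. Its relative Hspa4l (Apg-1) had a level of 52.3 per kb, and Hspa4 stood 3.13- to 6.71-fold above it. Hspa13, a Hsp70 protein of microsomes, was at 75.8 per kb. Hspa2, known from the testis, was at 35.8 per kb. The main row of Hspa14, whose protein works at the ribosome with Dnajc2, was at 31.0 per kb, and Dnajc2 was at 40.8. The second row of Hspa14 was at 10.3 per kb. Both loci share exons on the same strand, so reads of the shared exons cannot be assigned to 1 of them. Whether such reads were counted was not examined, so both levels are uncertain. Hspa12b and Hspa12a, distant relatives of Hsp70, were at 9.01 and 3.40 per kb. For reference, the constitutive cytosolic Hspa8 (Hsc70), which the rule leaves out, had a level of 1342 per kb, close to Hspa9, and the ratio of Hspa8 to Hspa9 ran from 0.881 to 1.12 over the lengths. Hspa5 (BiP) of the endoplasmic reticulum had 3230 per kb, 1.73- to 2.16-fold above Hspa9.

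The Hspb symbols held 1 high gene. Hspb8, a small heat shock protein that works with Bag3 in the autophagy of misfolded proteins, was at 1203 per kb, with a mean normalized count of 2345. Bag3 itself had 273 per kb, and Hspb8 stood 4.41- to 9.85-fold above it. Hspb6 (Hsp20), abundant in muscle, was at 26.5 per kb, 28.9- to 45.4-fold below Hspb8. The other symbols with this beginning are not small heat shock proteins that bind unfolded chains. Hspbp1, a nucleotide exchange factor of Hsp70, was at 88.2 per kb, Hspb11, an intraflagellar transport protein, at 9.26 and Hspbap1 at 4.48. Hspb1 (Hsp27), which was left out, was at 19.3 per kb. The mean normalized counts of Hspb11 and Hspb1 were 19.2 and 19.9, near the lowest value in the table.

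Bag proteins are named for the BAG domain, which in Bag1 binds the ATPase domain of Hsp70. Bag1 had the highest level, at 395 per kb, and Bag6, which guards membrane proteins on their way to the endoplasmic reticulum, had 191. Bag1 stood 1.34- to 2.07-fold above Bag6 per kb, although its mean normalized count was lower, at 533 against 1189. Bag5 and Bag4 were at 80.4 and 76.8 per kb. Bag2, an inhibitor of the ubiquitin ligase Stub1 (CHIP), was at 5.26 per kb with a mean normalized count of 16.1, near the lowest value in the table. Stub1 itself was at 145 per kb.

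The 33 J-domain proteins ranged from 12.7 to 477 per kb, with a median of 66.6. Their share of the summed level per kb of the members was 27.5% with merged exons, 28.7% with 1 transcript a gene and 40.4% with the coding region. By every length, 16 of them stayed above the median of protein-coding rows and 10 stayed below it. None was in the top 10% by every length.

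Class A J-domain proteins, the general partners of Hsp70, had 3 high genes and 1 low gene. Per kb of merged exons, Dnaja3 had 396, Dnaja2 had 391 and Dnaja1 had 245. Their order changed with the length: with the coding region Dnaja1 led at 1773 per kb, against 1073 for Dnaja3 and 939.5 for Dnaja2. Dnaja1 had the highest mean normalized count of the 33 J-domain members, 2117, but long merged exons of 8629 bases. Dnaja4 was at 14.0 per kb with a mean normalized count of 50.2. Each of the other class A genes stood at least 17.5-fold above Dnaja4 by every length, as far as these values go.

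Each of the 6 class B members was lower than Dnaja1, Dnaja2 and Dnaja3 by every length. Of the class B genes that the rule leaves out, Dnajb9, Dnajb11 and Dnajb1 were at 421, 269 and 130 per kb of merged exons. Dnajb1 was also lower than these class A genes by every length. Dnajb11 was lower than them with the coding region and with 1 transcript a gene. Dnajb12, a protein of the endoplasmic reticulum membrane that helps degrade misfolded membrane proteins, had 219 per kb, the highest of the 6 with merged exons and the coding region. Its relative Dnajb14 was at 29.2 per kb, and the ratio between them ran from 1.60 to 7.48 with the length, as the merged exons of Dnajb14 cover 15741 bases. Dnajb2, which carries ubiquitin-binding motifs, was at 129 per kb. Dnajb4 was at 73.4 per kb of merged exons, and with 1 transcript a gene it was the highest of the 6, at 261 against 242 for Dnajb12. Dnajb6, which holds back aggregation of polyglutamine proteins, was at 36.6 and Dnajb5 at 12.7 per kb.

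Class C J-domain proteins, which have a J-domain but neither of the other features of classes A and B, serve special tasks. Dnajc22, the relative of the fly membrane protein wurst, had the highest level of the 23 with merged exons, at 477 per kb, and with 1 transcript a gene. Its percentile was 86.3 to 93.0 over the lengths. Dnajc5 (cysteine string protein), which sits on secretory vesicles, had 148 per kb of merged exons, but led the 23 members with the coding region, at 1721 per kb against 864 for Dnajc22. The coding region of Dnajc5 has 597 bases in a transcript of 6578. Its mean normalized count was 1027, against 882 for Dnajc22. Dnajc7, which links Hsp70 and Hsp90, had 144 per kb. Dnajc10 (ERdj5), a disulfide reductase of the endoplasmic reticulum, had 121 per kb, and Dnajc30 of mitochondria 112.9. Per kb of merged exons, in an order that changed with the length, Dnajc25 was at 86.6, Dnajc13 (RME-8) of endosomes at 82.3, Dnajc11 of the mitochondrial membrane complexes at 75.3, Dnajc8 of the spliceosome at 71.4 and Dnajc14 at 68.0.

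The lowest class C genes by every length were Dnajc17, a splicing protein, at 14.7 per kb, and Dnajc9, a histone chaperone, at 16.2. Their mean normalized counts were 19.2, near the lowest value in the table, and 38.5. With merged exons Dnajc12 followed at 16.6 per kb, with a mean normalized count of 74.3, while its percentile ran from 19.9 to 41.3 over the lengths. Dnajc18 and Dnajc28 came next, at 25.8 and 28.2 per kb of merged exons. With the coding region the percentile of Dnajc18 was 42.9.

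By place of work, the values overlapped. The 6 J-domain genes listed for mitochondria ranged from 28.2 to 396 per kb, with a median of 71.0. Both of the genes known from the import motor, Dnajc19 and Dnajc15, lay in that range, at 66.6 and 38.0 per kb. The 5 listed for the endoplasmic reticulum ranged from 29.2 to 219 per kb, with a median of 86.6, and Dnajc1 was at 42.8. The 3 genes listed for the spliceosome and RNA ranged from 14.7 to 71.4 per kb, with Dnajc21 at 54.1. Dnajc24, which takes part in the synthesis of diphthamide, was at 45.8 per kb. Dnajc4 and Dnajc16 were at 49.1 and 44.95 per kb.

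**Figure D3:**
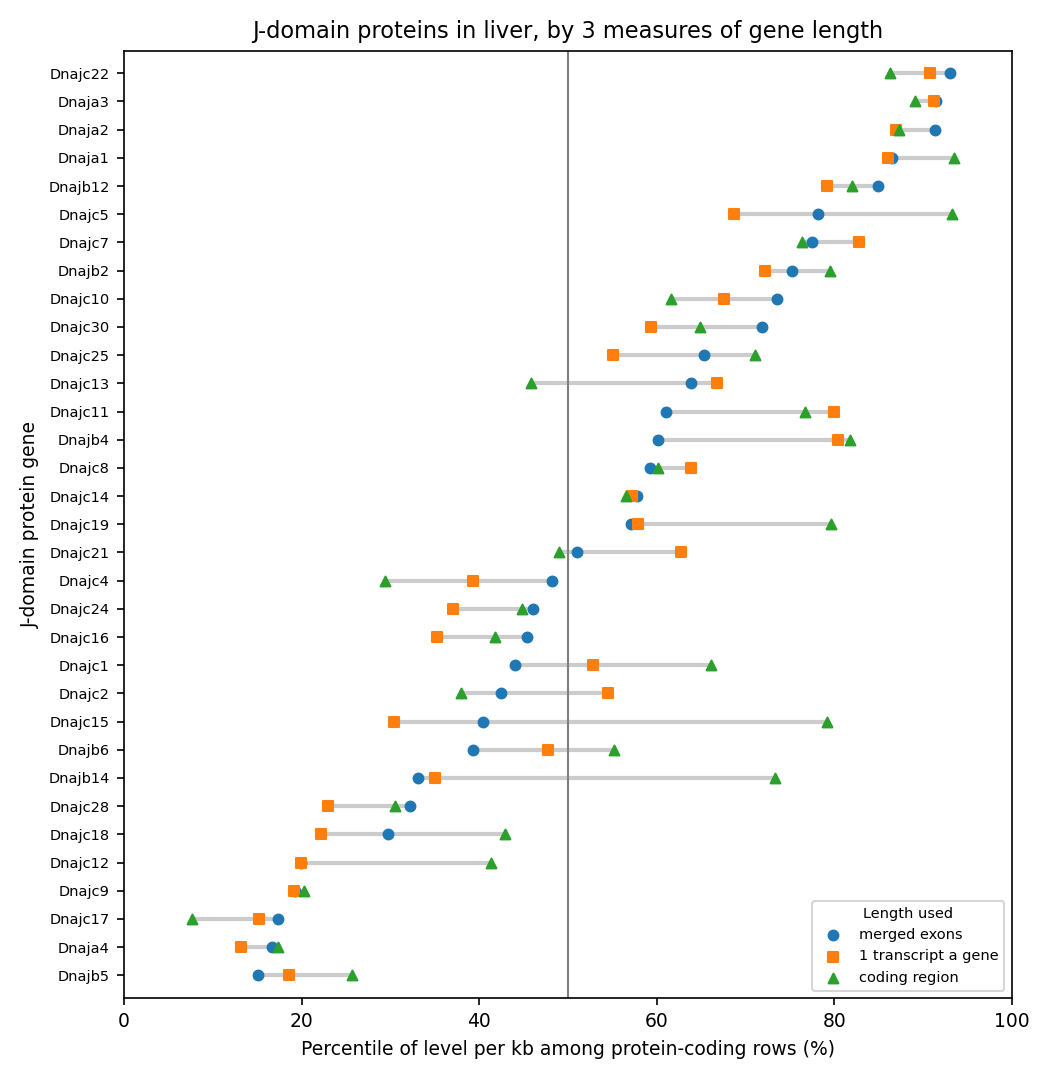
Percentile of the level per kb of each of the 33 J-domain protein genes among protein-coding rows in liver, with the length taken from merged exons (circles), 1 transcript a gene (squares) or the coding region (triangles). The grey bar spans the 3 values and the vertical line is the median of protein-coding rows. With merged exons Dnajc22 and 3 class A genes stand at the top, while Dnaja4, Dnajc9 and Dnajc17 stay in the lowest 25% by every length, and Dnajc15 and Dnajb14 move most with the length.

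Of the protein-coding genes in GENCODE M21 whose symbols fit the rule, 15 have no row among those analysed here. They include Cct6b, Hspa1l, Hspb9, Dnajb3, Dnajb7, Dnajb8, Dnajb13, Dnajc5b and Dnajc5g, most of them known from the testis. Hspb2, Hspb3 and Hspb7, known from muscle, and Dnajc6 (auxilin), known from neurons, are also among them, with Cct8l1 and Dnajc27. Their levels in these livers were not analysed here. Gak, the relative of Dnajc6 that is made in many tissues and uncoats clathrin vesicles, had 150 per kb.

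Most members had promoters rich in CpG dinucleotides, which are common at genes active in many tissues. The observed over expected CpG ratio had a median of 0.853 over the 53 matched symbols, against 0.750 over the 9156 matched protein-coding genes. A ratio over 0.6 was found for 47 of the 53 (88.7%), against 70.1% of the protein-coding genes. Hspb8 had the lowest ratio of the members, 0.446, together with one of the highest levels. Across the 54 member rows with a window, the level per kb of merged exons and this ratio had a Spearman correlation of 0.257. With the coding region it was 0.182, over 53 rows. Both are given as a description of genes that share the same libraries.

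Some members share a start region with a neighbour on the other strand. A protein-coding neighbour with a divergent start within 1000 bases was annotated for 13 of the 66 members (19.7%), against 10.3% of the 11385 protein-coding rows found in GENCODE M21. Among the pairs whose neighbour also had a row, the member had the higher level per kb of merged exons for Cct5 and Fam173b, at 484 and 46.8, and for Bag1 and Chmp5, at 395 and 226. The same held for Pfdn6 and Wdr46 at 120 and 80.0, Bag5 and Apopt1 at 80.4 and 35.1, and Bag4 and Lsm1 at 76.8 and 31.4. The neighbour was higher for Dnajc2 and Psmc2, at 40.8 and 183, and for Hspb11 and Lrrc42, at 9.26 and 52.2. It was also higher for Dnajc12 and Sirt1, at 16.6 and 41.5. Pfdn2 and Nit1, at 133 and 128, and Dnajb4 and Fubp1, at 73.4 and 75.03, were too near each other to be ordered. All these levels are per kb of merged exons. The order of the pairs by the other lengths is not given here and may differ. The neighbours of Cct3 and of both rows of Hspa14 had no row among those analysed here. Neither share was tested against the other rows. Hspd1 and Hspe1 overlap in GENCODE M21, so they are not in this count, and both rows of Hspa14 are, with the same neighbour.

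Exons shared with neighbours make some of these values less certain. Whether reads in such exons were counted for the member, for its neighbour or for neither was not examined. Exons of 30 of the 66 members overlap exons of another gene in GENCODE M21, 11 on the same strand and 26 on the opposite strand. They include Tcp1, Cct6a, Cct7, Cct8, Hspd1, Dnaja1, Dnaja3 and Pfdn5. The library kit keeps the strand, but the strand setting of the counting is not given in the sources used here. Exons of Hspa9, Hspa4, Hspb8, Dnajc22, Cct2, Cct3, Cct4 and Cct5 overlap no other gene.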

How the data were processed

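RNA of 6 mouse livers was sequenced by the authors after rRNA depletion with a strand-specific kit. Reads were aligned by the authors with STAR 2.5.3a, as the submitters' processing notes give it, counted on Ensembl genes and normalized by the RLE method. The genome build is not given in the sources used here. The deposited signal is the mean normalized count of each gene over the livers of both groups, not scaled by length. The same table also holds, for the authors' comparison of the groups, a log2 fold change with its standard error and statistic, and p-values before and after adjustment. These 5 columns were not used, so no comparison between LL35 ASO and Luc ASO was made and no test was run.

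Lengths were taken from GENCODE M21 for 11754 of 11779 rows by identifier. Merged exons gave the main length. The coding region, and the transcript with the longest coding region, which was added after the data were seen, were the alternatives. Percentiles are the percent of protein-coding rows below a value. Promoter windows came from RefSeq (GRCm38.p6), matched by symbol. The members, lists and the rule for named genes (all members but some of class C, of which the 10 highest and 5 lowest were taken, besides those of function groups) were chosen with earlier results of these data known. Dnajc4 and Dnajc16 were named after their values were seen. No protein sequences were used here, so the planned protein features were not computed. A reference gene planned for comparison is not reported here. The search was tested on simulated data, where 200 of 200 planted elements were found. The tools were Python 3.11.15, pandas 2.3.3, numpy 2.4.6 and matplotlib 3.10.9. The depth of each library, and so the precision of each value, is unknown.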

Additional observations from a re-analysis of the deposited data

How the results depend on the processing

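The values rest on the length chosen for each gene, and none has a spread between mice. The median percentile of the members was 61.5 with merged exons and 67.6 with the coding region, 60.0 without division by length, 59.1 with 1 transcript a gene (added after the data were seen), 61.7 against all rows, 59.9 among rows whose mean normalized count reached 50 and 61.8 without the second row of Hspa14 (also added later). The members above the median numbered 38 to 42 under these settings. Those in the top 10% fell from 11 to 5 with the coding region, to 7 without division by length and to 7 at the minimum of 50. The highest over lowest TRiC subunit was 2.87 with merged exons, 1.81 with the coding region, 1.87 without division and 2.07 with 1 transcript a gene. For prefoldin these ratios were 14.0, 6.74, 7.74 and 6.81. The median TRiC subunit over the median prefoldin subunit was 2.69, 2.07, 8.72 and 3.79. Across members, the orders of levels under these scales had Spearman correlations of 0.885 to 0.964. No paired analysis was possible because no values of single mice were used, and leaving out each mouse could not be done for the same reason.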
